A study of Homo sapiens with 6 samples.

Results

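The IL-6 receptor chains, the 4 JAK kinases and the SOCS family inhibitors were examined in the human multiple myeloma line KMS27 with and without overexpression of HA-TAZ. The 10 genes are IL6R, IL6ST, JAK1, JAK2, JAK3, TYK2, SOCS1, SOCS2, SOCS3 and CISH, chosen by name. They were 10 of 63677 genes and 79 of 215170 transcripts in the deposited expression table. KMS27 is a cultured line derived from malignant plasma cells. TAZ is the WWTR1 gene product, a coactivator of transcription under control of the Hippo kinases, and HA is a peptide epitope tag fused to it. The labels give 3 libraries of wild type KMS27 cells and 3 of KMS27 cells labelled HA-TAZ. No age, time, dose, vector or promoter is given for either group. The titles of the wild type samples also carry the letters HA, and whether those cells hold an empty HA vector is not stated. The table's control columns carry a name that is in no label. By elimination these columns stand for the wild type group, and they are called here control a, b and c. The labels state triplicate libraries and no separate cultures, so p-values measure the spread between these libraries, which may be technical.

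IL-6 binds its receptor chain IL6R, and the complex recruits the shared signalling chain gp130, encoded by IL6ST. Kinases of the JAK family sit on the inner part of such receptors, phosphorylate them on engagement and activate STAT factors, chiefly STAT3 for gp130. SOCS proteins and CISH are induced by STATs and act as feedback inhibitors by blocking JAKs or receptors, or by directing them to ubiquitin ligases. IL-6 is a well known growth and survival factor of myeloma cells, made largely by marrow stroma. All comparisons here are of RNA levels, and no value measures phosphorylation, protein or receptor at the surface.

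Levels are given in TPM, an abundance corrected for transcript length that states a share of its library. TPM was summed per gene and divided by a scaling factor of each library, from 0.866 to 0.967 in HA-TAZ and from 1.06 to 1.21 in control, and the result is called scaled TPM. Genes with a mean of at least 1 TPM were tested with limma on log2(scaled TPM + 1), which understates the change of low genes, and an adjusted p (Benjamini-Hochberg) under 0.05 was called. Depth per library is unknown, because TPM carries none. WWTR1, the overexpressed gene, had 339, 316 and 329 scaled TPM in HA-TAZ 1, 2 and 3 and 2.22, 2.03 and 1.60 in control a, b and c. Its log2 change was 6.80 (SE 0.09, limma adjusted p = 1.14e-05, n = 3 and 3). Of 22651 genes tested, 1652 were called (7.29%), with 4.67% higher and 2.63% lower in HA-TAZ. The share of calls that were higher was 64%, but 7.84% with TPM as deposited and 43.4% when scaled over protein-coding genes, and the median log2 change of all genes was -0.03 after scaling and -0.27 as deposited. The 9 plasma cell markers were all detected, and their summed scaled TPM was 3129 to 3556 in HA-TAZ and 3991 to 4038 in control, dominated by JCHAIN (the immunoglobulin joining chain), with SLAMF7 called higher and CD38 lower. JCHAIN was at 2709 ± 199 and 3389 ± 27.7 and was not called (limma adjusted p = 0.0654), and the other 8 markers summed to 628 ± 16.8 in HA-TAZ and 624 ± 13.8 in control (scaled TPM, SD, n = 3 each) with overlap. Scaled marker sums of other cell types overlapped between groups, though with TPM as deposited each was lower in every HA-TAZ library, and lay at 3.01 to 4.48 and 3.54 to 4.26 for T and NK cells, 2.27 to 2.57 and 2.45 to 3.57 for monocytes, and 6.29 to 6.69 and 6.03 to 7.97 for stroma and endothelium, with 2 of 7, 1 of 6 and 3 of 7 markers above the filter. The HA-TAZ libraries listed CD3D at 0 and the controls listed LUM at 0. In bulk RNA, fewer cells of a kind and less RNA per cell cannot be told apart, and the part of the JCHAIN shift in the results that follow was not tested.

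JAK3 and TYK2 RNA was called higher in HA-TAZ cells and IL6R RNA was called lower. These were 3 of the 8 genes tested, beside 7.29% of all genes. For TYK2 the limma adjusted p was 0.0491, and with TPM as deposited its log2 change was 0.05 and it was not called. SOCS3 was near 0 in control and above 1 scaled TPM in HA-TAZ but its mean was below the level tested, and SOCS1 was higher in every HA-TAZ library without passing the threshold. IL6ST, JAK1, JAK2 and SOCS2 were not called, and CISH was low in both groups. The median log2 change of the 8 tested genes was 0.07, beside -0.03 for all genes. The scaled groups did not overlap for 6 of the 8 tested genes, against 38.5% of all genes tested. JAK3, TYK2 and SOCS1 were the higher ones and IL6R, IL6ST and JAK2 the lower ones. SOCS1 passed the filter on level through the HA-TAZ group, so its place in this count is no support. The TYK2 groups overlapped with TPM as deposited. With 1 library left out at a time, 0 to 2 of the 10 genes were called, none without HA-TAZ 1. Of all genes 118 to 470 were then called, and 118 of 22999 tested without HA-TAZ 1, against 1652 with all libraries. The order of levels, per length, in control was TYK2 and IL6ST (overlapping), IL6R, JAK1, JAK3, JAK2, SOCS2, SOCS1, CISH and SOCS3. In HA-TAZ it was TYK2, IL6ST, IL6R, JAK3, JAK1, SOCS2 and JAK2 (overlapping), SOCS1 and SOCS3 (overlapping) and CISH.

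**Figure D1:**
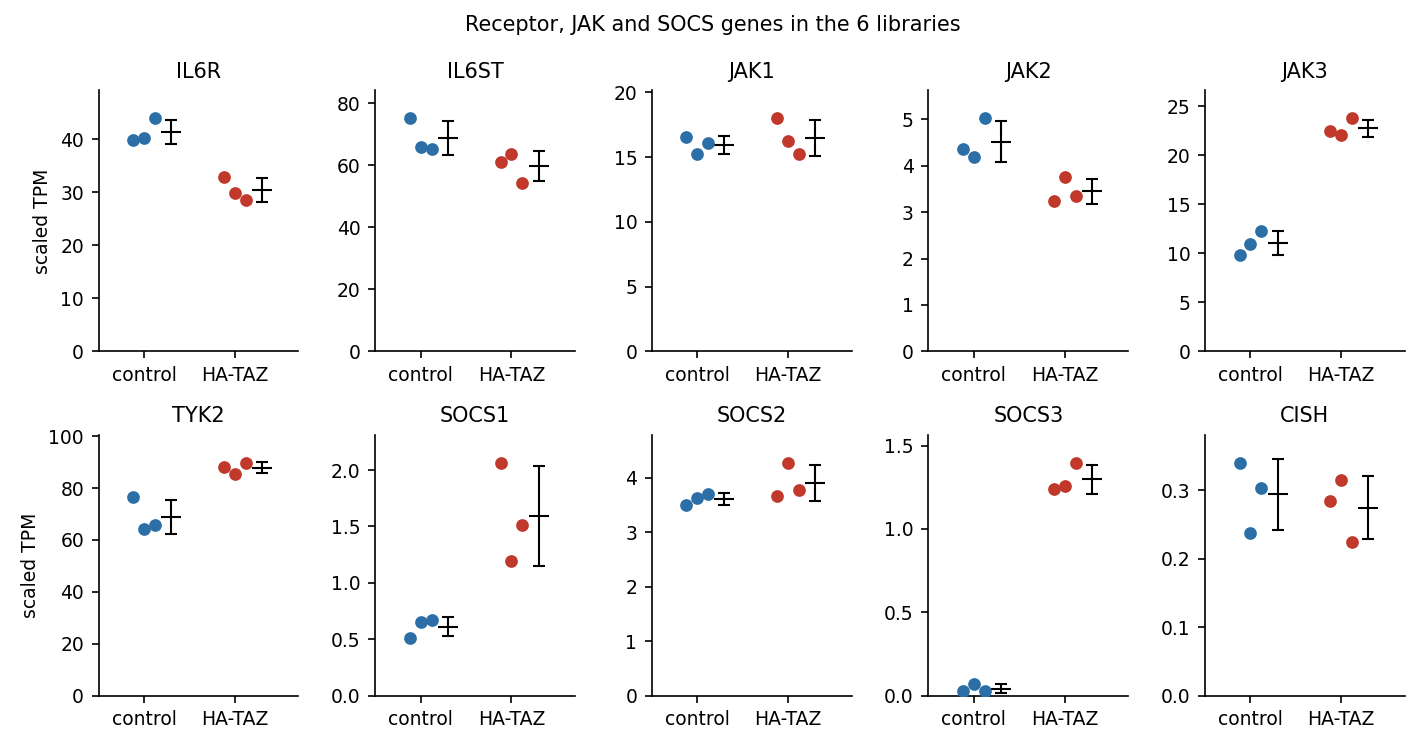
Scaled TPM (y axis, from 0, a separate scale for each gene) of the 10 genes in the 3 control libraries (blue) and the 3 HA-TAZ libraries (red), with the mean and SD in black. JAK3 lies at 22.1 to 23.8 in HA-TAZ and at 9.80 to 12.3 in control, IL6R is lower in every HA-TAZ library, and the groups overlap for JAK1, SOCS2 and CISH.

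IL6R (ENSG00000160712, chr1:154405193-154469450, plus strand, GRCh38), the ligand-binding chain, had lower RNA in HA-TAZ. Scaled TPM was 32.9, 29.8 and 28.5 in HA-TAZ 1, 2 and 3 and 39.9, 40.2 and 43.9 in control a, b and c. Every HA-TAZ library lay below every control library. The means were 30.4 ± 2.26 and 41.3 ± 2.23 (SD, n = 3 each), a log2 change of -0.43 (SE 0.07, limma adjusted p = 0.0331). The call was lost when any 1 of the 6 libraries was left out, with log2 changes from -0.48 to -0.38 and limma adjusted p from 0.0671 to 0.0973. It was also lost without the filter on level (0.0587) and without the trend in limma (0.055).

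IL6R RNA exists in a membrane form and a spliced form that lacks the exon encoding the transmembrane segment and gives a soluble receptor. The annotation holds both, as IL6R-202 and IL6R-201, and the exon is number 9 of the 10 exons of IL6R-202, at chr1:154454488-154454581 on the plus strand of GRCh38 (GENCODE release 29). Their transcript sequences (written as DNA) around this exon are shown because they are what separates the forms in the quantification; capitals mark the exon, with 20 bases on each side, and the second line is the junction that joins its neighbours when it is skipped.
IL6R-202: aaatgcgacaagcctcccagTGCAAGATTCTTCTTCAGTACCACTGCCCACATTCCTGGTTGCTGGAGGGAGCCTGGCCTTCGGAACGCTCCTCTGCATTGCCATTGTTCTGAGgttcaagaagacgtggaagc
IL6R-201: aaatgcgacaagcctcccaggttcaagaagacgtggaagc
The membrane form IL6R-202 made up most of the protein-coding level, at 16.5, 15.9 and 16.5 scaled TPM in HA-TAZ and between 18.9 and 20.6 in the 3 control libraries. Its groups did not overlap, and its log2 change was -0.27 (SE 0.07, limma adjusted p over transcripts = 0.111). In the authors' deposited table it was the only transcript of the 10 genes with a negative effect at a q-value under 0.05 (natural log effect -0.175, SE 0.0498, q = 0.0132). IL6R-205, a form not annotated as protein coding, was at 5.62 ± 1.24 and 8.45 ± 0.773 scaled TPM (SD, n = 3 each) without overlap, with a log2 change of -0.52 that was not called (limma adjusted p = 0.122). The soluble form IL6R-201 was at 1.61 ± 0.0870 in HA-TAZ and 1.66 ± 0.229 in control (scaled TPM, SD, n = 3 each), with overlapping groups. Its share of both forms was 9.37%, 9.14% and 8.50% in HA-TAZ and 6.93%, 7.70% and 8.49% in control. These shares did not overlap, although HA-TAZ 3 and control c nearly touched, and the exact two-sided permutation p was 0.1, the smallest that 3 against 3 libraries can give.

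IL6ST, which encodes gp130, was at 61.0, 63.7 and 54.4 scaled TPM in HA-TAZ and 75.0, 66.0 and 65.2 in control. The HA-TAZ libraries were the lower ones, by a narrow margin between HA-TAZ 2 and control c. The means were 59.7 ± 4.82 and 68.7 ± 5.47 (SD, n = 3 each), and the log2 change of -0.20 was not called (SE 0.08, limma adjusted p = 0.172). Protein-coding transcripts made up 38.2% of IL6ST TPM in HA-TAZ and 31.4% in control, and the rest was annotated as retained introns and other non-coding forms. Over protein-coding transcripts alone, where the median of all genes was 0.13, its log2 change was 0.06 (limma adjusted p = 0.619), so the sign depended on the transcripts counted. The most abundant protein-coding form, IL6ST-206, was at 12.7 ± 0.348 and 11.6 ± 1.32 scaled TPM and overlapped.

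One minor gp130 transcript differed from the gene as a whole. IL6ST-209, annotated as protein coding, was at 0.800, 2.01 and 1.32 scaled TPM in the HA-TAZ libraries and was listed at 0 in control a and b and at 0.000285 in control c. It took 1.31%, 3.15% and 2.44% of IL6ST TPM in HA-TAZ. In the authors' deposited table its effect was 6.16 on the natural log scale (SE 0.915, q = 6.48e-09). A value of 0 in such a table can be a failed estimate among overlapping isoforms, and no fold is given. The number of IL6R transcripts per IL6ST transcript (ratio of TPM) was 0.510 ± 0.0384 in HA-TAZ and 0.604 ± 0.0710 in control, with overlapping groups (exact two-sided permutation p = 0.2, n = 3 each).

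The 4 JAK kinases differed widely in level. JAK3 was called higher, and so was TYK2 with scaled TPM but not with TPM as deposited. TYK2, which serves interferon and several cytokine receptors and also gp130, was the most abundant in both groups, followed in control by JAK1 (the main kinase of gp130), JAK3 and JAK2. In HA-TAZ JAK3 stood above JAK1 in every library.

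JAK3 (ENSG00000105639, chr19:17824780-17848071, minus strand, GRCh38) pairs with the common gamma chain of the IL-2, IL-4, IL-7, IL-15 and IL-21 receptors. Scaled TPM was 22.5, 22.1 and 23.8 in HA-TAZ 1, 2 and 3 and 9.80, 11.0 and 12.3 in control a, b and c. The groups were far apart, and the ratio of the means was 2.06. The means were 22.8 ± 0.888 and 11.0 ± 1.24 (SD, n = 3 each), a log2 change of 0.99 (SE 0.09, limma adjusted p = 0.00891). Leaving out HA-TAZ 1 alone ended the call, with a limma adjusted p of 0.0537, while the log2 change stayed at 0.91 to 1.06 whichever library was left out. With TPM as deposited, JAK3 was at 19.5, 21.3 and 21.1 in HA-TAZ and 11.85, 11.99 and 12.99 in control, a log2 change of 0.71.

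JAK3-201, a coding transcript, was the main form of JAK3. It held 68.5% of JAK3 TPM in HA-TAZ and 65.7% in control, and went from 7.24 ± 0.750 to 15.6 ± 0.302 scaled TPM (SD, n = 3 each). Its log2 change was 1.01 (limma adjusted p over transcripts = 0.0190). It was the only one of the 39 tested transcripts of these genes that was called, beside 0.534% of 57448 transcripts tested. In the authors' deposited table JAK3-201 had an effect of 0.790 (natural log, SE 0.0566, q = 1.05e-40). There JAK3-203 and JAK3-205, both retained-intron forms, had effects of 0.573 and 0.906, and the protein-coding JAK3-207 had 1.20, all at q-values under 0.05.

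TYK2 (ENSG00000105397, chr19:10350529-10380676, minus strand, GRCh38) was at 88.3, 85.5 and 89.8 scaled TPM in HA-TAZ and 76.5, 64.3 and 65.7 in control. Control a was the highest control and still lay below HA-TAZ 2. The means were 87.9 ± 2.16 and 68.8 ± 6.65 (SD, n = 3 each), a log2 change of 0.35 (SE 0.07, limma adjusted p = 0.0491), close to the threshold. With TPM as deposited the TYK2 groups overlapped, with 76.4, 82.7 and 79.9 in HA-TAZ and 92.5, 70.1 and 69.4 in control, and the log2 change was 0.05 (limma adjusted p = 0.744). Leaving out any library other than control a also ended the call, with log2 changes of 0.31 to 0.38 and limma adjusted p from 0.0969 to 0.149. So did scaling over protein-coding genes (0.28, limma adjusted p = 0.0883), a pseudocount of 0.1 (0.0507), no filter on level (0.0893) and no trend (0.0733). TYK2 is annotated with 21 transcripts, some of them retained introns. The coding form TYK2-201 was at 11.0 ± 0.164 in HA-TAZ and 7.68 ± 0.872 in control (scaled TPM, SD, n = 3 each), and the retained-intron form TYK2-213 at 7.53 ± 1.11 and 3.57 ± 0.577. In the authors' deposited table their effects were 0.386 (q = 0.008) and 0.757 (q = 2.18e-06) on the natural log scale.

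**Figure D2:**
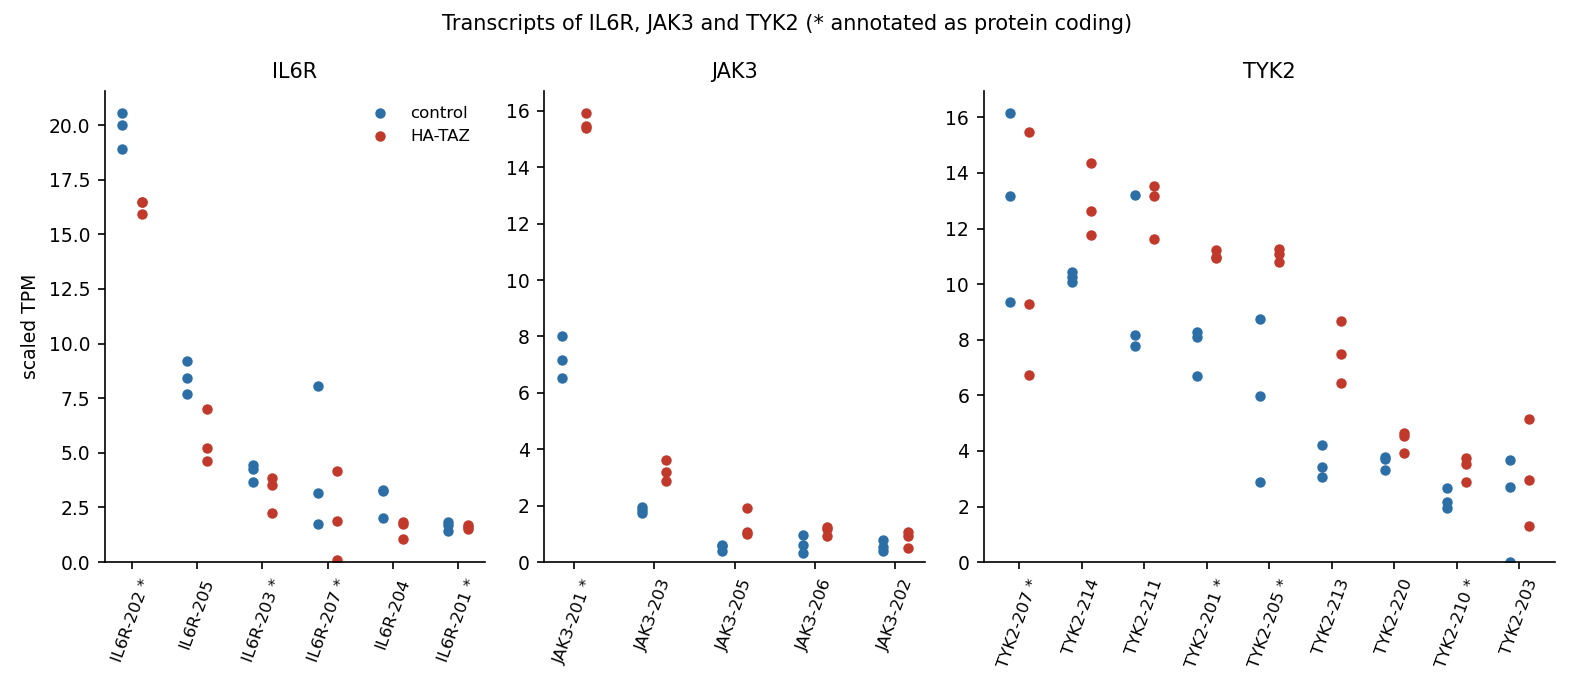
Scaled TPM (y axis, from 0, a separate scale in each panel) of the transcripts of IL6R, JAK3 and TYK2 with a mean of at least 0.5 TPM, at most the 9 most abundant, in control (blue) and HA-TAZ (red); an asterisk marks protein-coding forms. JAK3-201 is at 15.4 to 15.9 in HA-TAZ and 6.53 to 8.03 in control, IL6R-202 is lower in HA-TAZ, and several TYK2 forms overlap between groups.

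JAK1 was at 18.0, 16.3 and 15.2 scaled TPM in HA-TAZ and 16.6, 15.2 and 16.1 in control. The groups overlapped, and the log2 change was 0.04 (SE 0.08, limma adjusted p = 0.736), or -0.24 with TPM as deposited and -0.03 when scaled over protein-coding genes. JAK1 shares exon bases with RAVER2 on the other strand in the annotation, and no source used here says if strand entered the quantification. JAK2, the kinase of many growth factor receptors, was the lowest of the 4 at 3.24, 3.75 and 3.35 in HA-TAZ and 4.35, 4.19 and 5.02 in control. All HA-TAZ libraries lay below all controls, and the log2 change of -0.31 was not called (SE 0.10, limma adjusted p = 0.102). With TPM as deposited it was -0.55 (limma adjusted p = 0.0391), so the JAK2 call rests on the scaling.

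The make-up of JAK RNA, which needs no scaling between libraries, held more JAK3 in HA-TAZ. JAK3 took 17.0%, 17.3% and 18.0% of the summed JAK TPM in HA-TAZ and 9.15%, 11.6% and 12.4% in control. JAK1 had a share of 12.6% ± 1.06 in HA-TAZ and 15.9% ± 0.413 in control, and JAK2 one of 2.64% ± 0.260 and 4.52% ± 0.510 (SD, n = 3 each), neither with overlap. Shares of a sum depend on each other, so a higher JAK3 share by itself lowers those of the other kinases. The scaled TPM of JAK1 overlapped between groups, with a log2 change of 0.04 (limma adjusted p = 0.736). The TYK2 share was 67.3% ± 0.581 in HA-TAZ and 68.5% ± 2.58 in control and overlapped. For the JAK1, JAK2 and JAK3 shares the exact two-sided permutation p was 0.1, the smallest possible here, and for TYK2 it was 0.7. JAK3 per JAK1 (ratio of TPM) was 1.25, 1.36 and 1.56 in HA-TAZ and 0.592, 0.723 and 0.764 in control.

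**Figure D3:**
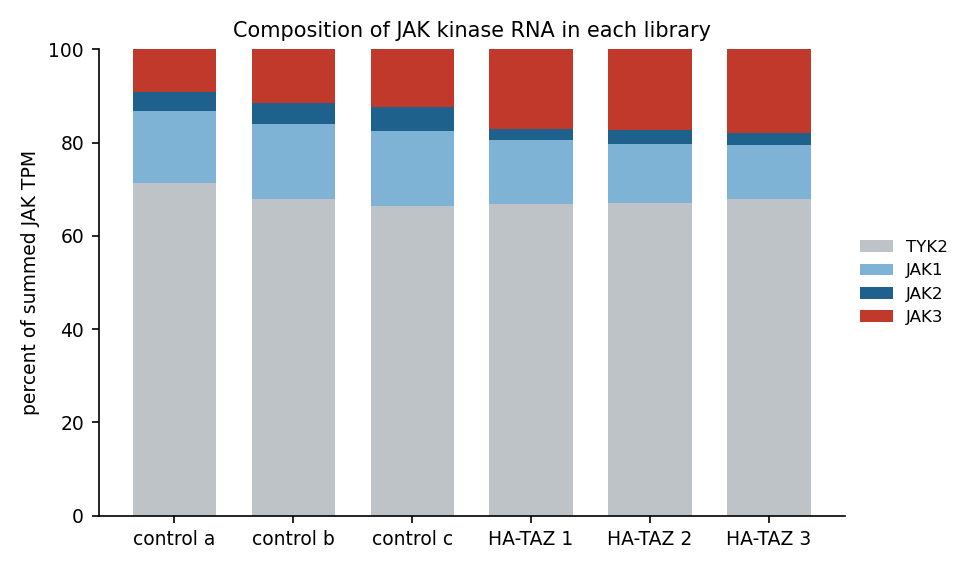
Share of each JAK kinase in the summed TPM of the 4 JAKs (y axis, percent) in each library, as stacked bars. JAK3 (red) takes 17.0% to 18.0% in the HA-TAZ libraries and 9.15% to 12.4% in the controls, while TYK2 (grey) holds 66.3% to 71.3% throughout.

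SOCS1, SOCS2, SOCS3 and CISH were low in this line, from under 0.1 to about 4 scaled TPM. SOCS3 (ENSG00000184557, chr17:78356778-78360077, minus strand, GRCh38), which binds gp130 and inhibits JAKs and is the best known feedback inhibitor of IL-6, was at 1.24, 1.26 and 1.40 scaled TPM in HA-TAZ and 0.0252, 0.0723 and 0.0308 in control. The controls were near 0 and every HA-TAZ library was above 1. The means were 1.30 ± 0.0870 and 0.0428 ± 0.0257 (SD, n = 3 each), with an exact two-sided permutation p of 0.1 for this single value. Its mean over all libraries was under 1 TPM and the gene was not tested. In a fit without the filter on level SOCS3 had a log2 change of 1.14 (limma adjusted p = 0.00761), where 1.46% of 47371 genes were called. The authors' deposited table gave its transcript SOCS3-201 an effect of 3.84 (natural log, SE 0.421, q = 8.96e-17), with implied estimated counts of 223 for HA-TAZ and 4.81 for control. The number of estimated counts behind the control value is thus small.

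SOCS1 (ENSG00000185338, chr16:11254405-11256200, minus strand, GRCh38) blocks JAK kinase activity directly and is best known as an inhibitor of interferon signalling. It was at 2.07, 1.19 and 1.52 scaled TPM in HA-TAZ and 0.513, 0.654 and 0.668 in control. Every HA-TAZ library was higher, with HA-TAZ 1 well above the other two. The means were 1.59 ± 0.442 and 0.612 ± 0.0854 (SD, n = 3 each), a log2 change of 0.67 (SE 0.15) with a limma adjusted p of 0.0569. Its mean over all libraries was 1.05 TPM, so it passed the filter on level through the HA-TAZ group. In the authors' deposited table SOCS1-201, its single transcript, had an effect of 0.944 (natural log, SE 0.187, q = 5.07e-05), with implied estimated counts of 108 and 41.9.

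SOCS2, known mainly as an inhibitor of growth hormone signalling, was at 3.66, 4.28 and 3.77 scaled TPM in HA-TAZ and 3.49, 3.63 and 3.71 in control. The groups overlapped, and the log2 change was 0.09 (SE 0.09, limma adjusted p = 0.53), or -0.15 with TPM as deposited. Within SOCS2, SOCS2-202 was at 0.830 ± 0.212 in HA-TAZ and 0.279 ± 0.0642 in control without overlap, and SOCS2-211 at 0.899 ± 0.382 and 1.20 ± 0.181 with overlap (scaled TPM, SD, n = 3 each). CISH, a STAT5-induced inhibitor, was at 0.284, 0.315 and 0.225 in HA-TAZ and 0.340, 0.238 and 0.304 in control. It was below the level tested, its groups overlapped, and the means were 0.275 ± 0.0457 and 0.294 ± 0.0517 (SD, n = 3 each, exact two-sided permutation p = 0.6). SOCS2 and CISH share exon bases with SOCS2-AS1 and MAPKAPK3 on the other strand in the annotation, so their values are uncertain in the same way as that of JAK1.

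Over all transcripts of the 10 genes, 76 of 79 were above 0 in some library. The authors' deposited table gave statistics for 65 of them, and 11 had a q-value under 0.05, beside 5.68% of the 109487 transcripts in that table. That share covers both directions. Of the 11, 10 had a positive effect, but the share of positive effects over all transcripts was not computed. The 10 were IL6ST-209, SOCS1-201, SOCS3-201, the 4 JAK3 forms named above, TYK2-201, TYK2-213 and TYK2-210 (effect 0.428).

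**Figure D4:**
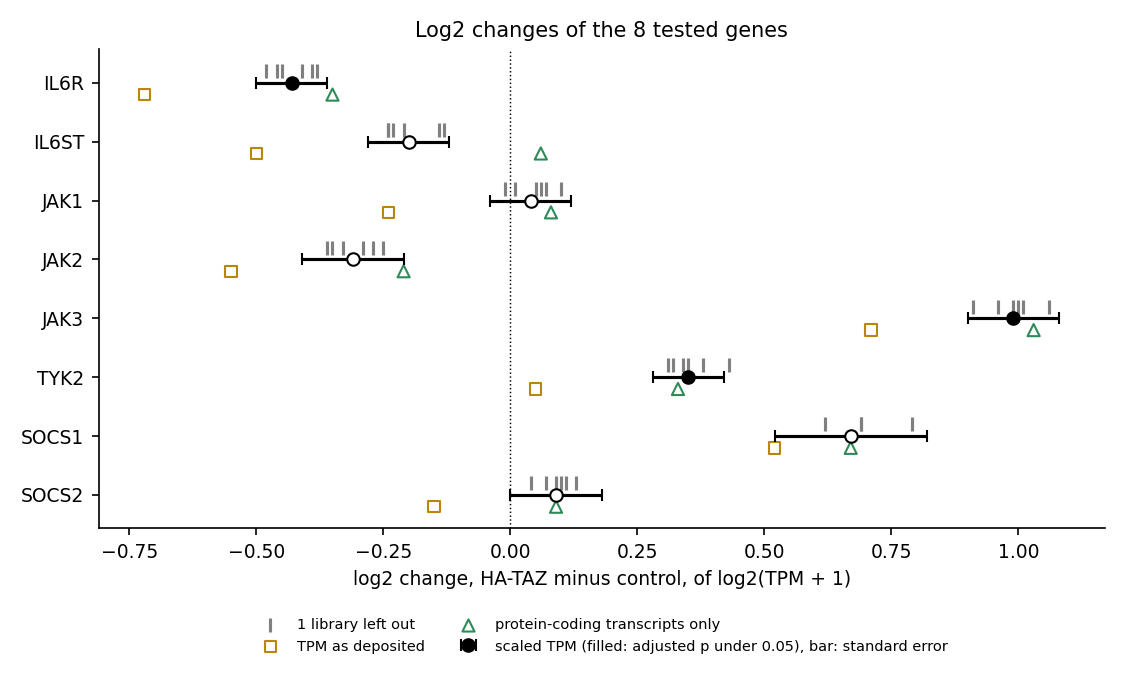
Log2 change of log2(TPM + 1), HA-TAZ minus control (x axis), of the 8 tested genes with its standard error, filled where the adjusted p was under 0.05. Grey ticks leave out 1 library, squares use TPM as deposited and triangles sum protein-coding transcripts only. JAK3 stays between 0.71 and 1.06 under all of these, TYK2 falls to 0.05 with TPM as deposited, and IL6ST, JAK1 and SOCS2 change sign under at least 1 of them.

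The stretches before the starts of SOCS1, CISH and JAK3 (RefSeq, build GRCh38.p14) hold motifs of factors that act downstream of cytokine receptors. They are shown because these genes were higher in HA-TAZ (SOCS1, JAK3) or low in both groups (CISH), and the motifs were chosen after the matches had been seen. The motifs searched on both strands were TTCNNNGAA (STAT), GAAA followed by any 2 bases and GAAA again (interferon response), the NF-kB consensus and GGAATG (TEAD, the DNA-binding partner of TAZ), in 250 bases before each start. Capitals mark the matches, and no match overlapped another. The SOCS1 stretch is chr16:11256205-11256454, minus strand, with an interferon motif 113 and an NF-kB motif 67 bases before the start. The CISH stretch is chr3:50611832-50612024, minus strand, with 4 STAT motifs, and the JAK3 stretch is chr19:17847993-17848022, minus strand, with an NF-kB motif 30 bases before the start.
SOCS1: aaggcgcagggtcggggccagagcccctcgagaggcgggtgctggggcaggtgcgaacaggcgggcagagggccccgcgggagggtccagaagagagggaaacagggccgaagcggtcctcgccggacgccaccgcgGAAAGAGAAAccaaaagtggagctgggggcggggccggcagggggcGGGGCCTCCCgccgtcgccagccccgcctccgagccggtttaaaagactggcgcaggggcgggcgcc
CISH: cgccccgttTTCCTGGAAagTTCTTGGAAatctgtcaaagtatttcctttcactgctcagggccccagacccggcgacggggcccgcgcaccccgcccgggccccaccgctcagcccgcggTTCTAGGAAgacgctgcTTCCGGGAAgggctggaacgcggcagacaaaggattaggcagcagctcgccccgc
JAK3: ggagccgagtGGGACTTTCCtctcgctgcc
Of 35116 such stretches, 6.57% held a STAT motif, 3.02% an interferon motif, 6.88% an NF-kB motif and 11.9% a TEAD motif. A TEAD motif was matched in 1 of the 3 JAK1 stretches and in 1 of the 2 SOCS3 stretches, 103 and 114 bases before the start. The matched SOCS3 stretch belongs to a RefSeq start at chr17:78360925. It lies upstream of the SOCS3 start that GENCODE annotates, at 78360077 on the minus strand, and does not adjoin it. The JAK3 motif lies inside the gene as GENCODE annotates it. The stretches of IL6R, IL6ST, JAK2 and TYK2 held no match. SOCS2 was not matched in the table. A match is a run of letters and not a measured binding site.

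Other genes of the pathway were read from 11 lists of 85 genes, 64 of which were tested. In HA-TAZ 14 were called higher and 2 lower, beside 4.67% and 2.63% of all genes. With TPM as deposited 3329 of all 22651 genes were called, and 7.84% of these calls were higher. Of the list genes 15 were then called, with STAT3, BCL3, JUNB, PIM1, MCL1 and IRF1 higher. IL21R, PIAS1, PIAS2, PTPN2, GAB2, ADAM10, VEGFA, TIMP1 and HP were then lower, so the balance of directions depended on the scaling. With any 1 library left out, 5 to 8 were called in all, and 118 to 470 of all genes. These lists were drawn up with earlier results on these libraries known, and their counts are no independent evidence of direction.

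Ligands of the gp130 family were scarce. IL6 itself was at 0.199 ± 0.109 scaled TPM in HA-TAZ and 0.0930 ± 0.0544 in control (SD, n = 3 each) and overlapped, and LIF was listed at 0 in all libraries. Of 8 ligands 6 were below the filter and none of the other 2 was called, with OSM, which passed the filter on level through the HA-TAZ group, at a log2 change of 0.48 (limma adjusted p = 0.0688) and CNTF at -0.18 (limma adjusted p = 0.348). None of the 3 tested other gp130 family chains was called, and IL11RA, OSMR and IL27RA all overlapped between groups.

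Of 7 tested receptors of the common gamma chain family 2 rose, beside 4.67% of all genes. IL2RG, the common gamma chain to which JAK3 binds, went from 13.8 ± 1.39 to 24.2 ± 0.770 scaled TPM (SD, n = 3 each), a log2 change of 0.78 (SE 0.08, limma adjusted p = 0.0114). IL15RA, the IL-15 binding chain, went from 9.15 ± 0.647 to 13.5 ± 0.532, a log2 change of 0.52 (limma adjusted p = 0.0232). IL2RB, IL4R, IL7R, IL9R and IL21R were not called, and the median of the list was -0.12, beside -0.03 for all genes. Of 7 tested interferon and IL-10 receptors 2 rose, beside 4.67% of all genes, and the median was 0.15. They were IFNGR2 with a log2 change of 0.51 (limma adjusted p = 0.0387) and IL10RA with 0.62 (limma adjusted p = 0.046). With TPM as deposited these 4 receptors were not called, with log2 changes of 0.49 for IL2RG (limma adjusted p = 0.0566), 0.24 for IL15RA (0.0898), 0.24 for IFNGR2 (0.190) and 0.39 for IL10RA (0.122). IFNGR2 has a second identifier in the table, so its reads may be split.

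Of 4 tested STAT factors 2 rose, beside 4.67% of all genes, and the median was 0.21, beside -0.03 for all genes. STAT3, the main STAT of gp130, went from 24.5 ± 1.13 to 37.3 ± 2.13 scaled TPM (log2 change 0.59, limma adjusted p = 0.0122). STAT2, a STAT of type I interferon signalling, had a log2 change of 0.33 (limma adjusted p = 0.0359), or 0.04 with overlapping groups when TPM was used as deposited (0.723), and STAT5B and STAT6 were not called. Genes known as STAT3 targets held 14 tested members, of which 7 rose and 1 fell, beside 4.67% and 2.63% of all genes. The list's median was 0.59, beside -0.03 for all genes. With TPM as deposited PIM2 and FOS lost their calls (limma adjusted p = 0.166 and 0.0678). The genes that rose included IRF1 with a log2 change of 1.02 (limma adjusted p = 0.00243), BCL3 with 1.11 (0.00271), JUNB with 1.39 (0.00689) and PIM1, a survival kinase, with 0.87 (0.00702). These encode regulators of transcription and a kinase. Other pathways, NF-kB among them, are known to regulate such genes too, and which pathway acted here was not tested. HP, haptoglobin, fell by 0.46 (limma adjusted p = 0.0452). Of 6 tested STAT5 targets PIM1 alone was called, higher, beside 4.67% of all genes, and the median was 0.32, beside -0.03. OSM is among the 6 and passed the filter on level through the HA-TAZ group, so its place in this median is no support.

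Among inhibitors and adaptors PIAS1 and GRB2 were called, of 24 tested, beside 7.29% of all genes. None of the 4 other SOCS genes was called, SOCS6 having a log2 change of 0.33 (limma adjusted p = 0.114) and SOCS4 one of 0.09 (0.269). None of the 4 partners of the SOCS box in ubiquitin ligases was called, although the list's median was 0.37, with TCEB1 at 0.43 (limma adjusted p = 0.0706) and RNF7 at 0.37 (0.0842). Of 8 tested other negative regulators PIAS1, a SUMO ligase, fell by 0.32 (limma adjusted p = 0.0406), and the list's median was 0.01. Of 8 adaptors and sheddases GRB2, which links receptors to RAS, rose by 0.33 (limma adjusted p = 0.0321), and the median was -0.05. With TPM as deposited the GRB2 groups overlapped and its log2 change was 0.04 (limma adjusted p = 0.770).

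**Figure D5:**
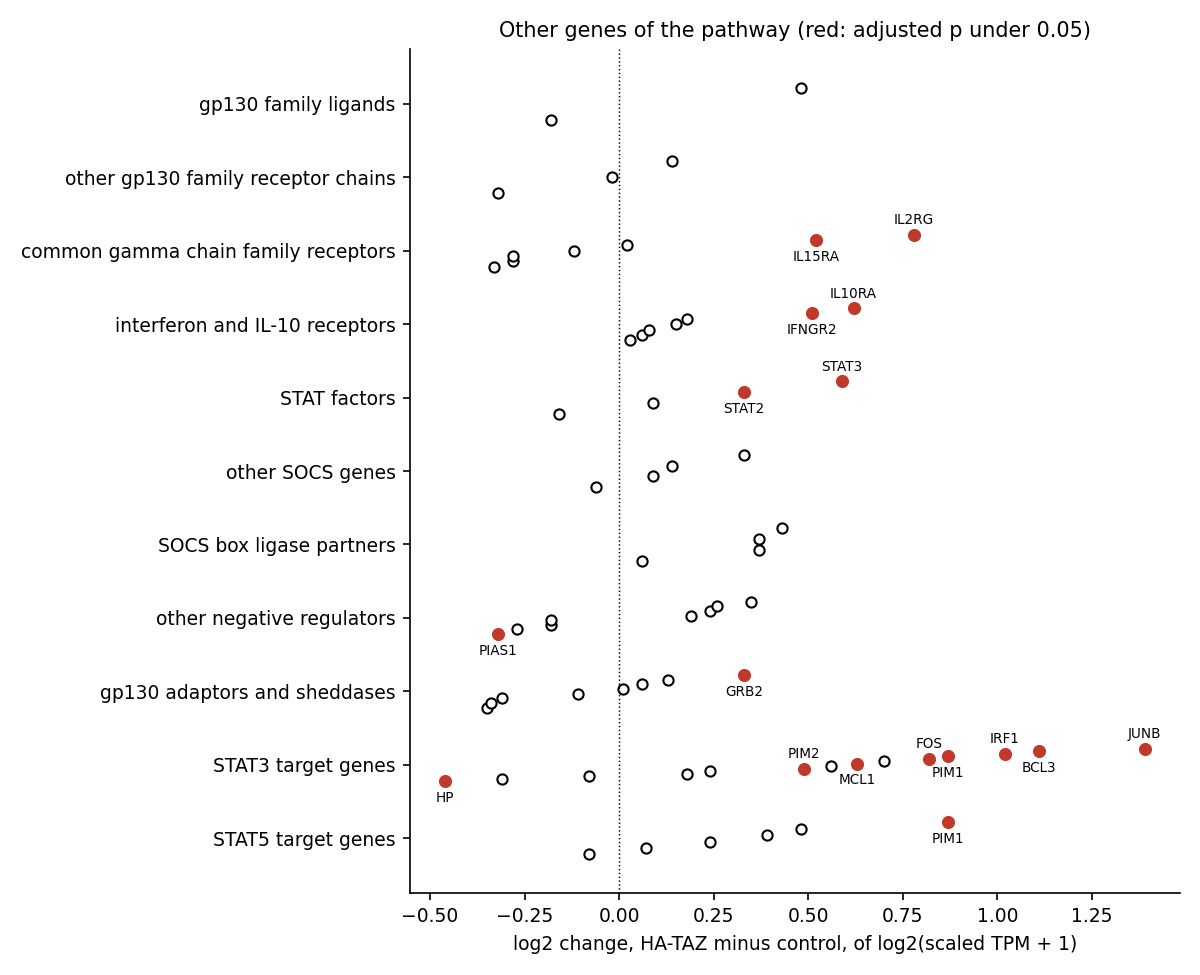
Log2 change, HA-TAZ minus control (x axis), of each tested gene of the 11 pathway lists (y axis), red where the adjusted p was under 0.05. JUNB (1.39), BCL3 (1.11) and IRF1 (1.02) lie farthest right among the STAT3 targets, and IL2RG (0.78) leads the common gamma chain family.

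The genes nearest to JAK3 in their pattern over the 6 libraries, by root mean square distance of centred log2(scaled TPM + 1), were HLA-B (distance 0.048, identifier ENSG00000223532, one of several near-identical copies and so uncertain), SQSTM1 (0.049) and CHST7 (0.054), beside a median distance of 0.546 over all genes. For IL6R they were ANKRD37 (0.026), CRYM-AS1 (0.033, an antisense gene and so uncertain) and RP11-77G23.5 (0.035), beside a median of 0.288. For TYK2 they were ZSCAN29 (0.038), RP11-1399P15.1 (0.040) and ATP5B (0.044), beside a median of 0.266.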

How the data were processed

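Total RNA of KMS27 cells was treated with DNase, depleted of ribosomal RNA, made into stranded libraries and sequenced from both ends, per the labels' protocols. The authors deposited TPM per transcript, and FastQC 0.11.91, MultiQC 1.92, kallisto 0.46.0, sleuth 0.30.0 and build GRCh37 are named per the submitters' processing notes. The annotation release and the use of strand are not given in the sources used here. The authors also deposited a sleuth table whose p-values and q-values are per transcript, per the file headers. Its effect is read here as a natural log, a base that the headers do not state. Estimated counts were taken from the authors' deposited means, read as natural logs of scaled estimated counts, with the effect split evenly around them.

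TPM was summed per Ensembl gene, divided by a median-of-ratios factor over 21512 genes with a mean of at least 1 TPM and above 0 in all 6 libraries, filtered at a mean of 1 TPM, and tested on log2(scaled TPM + 1) with limma 3.58.1 (trend, R 4.3.3, two-sided, Benjamini-Hochberg adjustment over all genes or transcripts tested, threshold 0.05). The script was tested on simulated data. There 64% of 100 genes given a log2 change of size 1.0 were called, and 16% of 100 given 0.5, among 22651 genes. There were 4 false calls. The share of genes changed was smaller than the share called in the data, so these rates may not carry over. A gene that was not called may thus still have changed. Transcript names and types came from GENCODE release 29 (GRCh38), matched by identifier without version for 84.7% of transcripts, and promoter sequences from RefSeq. Alternatives were TPM as deposited, scaling over 11664 protein-coding genes, pseudocounts of 0.1 and 0.5, no filter or a mean of 5 TPM, limma without trend, protein-coding transcripts only and leaving out each library.

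All 10 genes are named. From each pathway list, the called genes (at most 4, by adjusted p) or else those 2 with the smallest adjusted p are named. The 3 nearest profiles are given for each called gene. Others (SOCS2-202, IL6ST-209, IL6, LIF, HP, PIM2, FOS and listed genes named without values) were chosen after their values were seen. One gene of the pathway lists is not reported here and was left out of their counts. The genes and lists were chosen with earlier results of these data known.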

Additional observations from a re-analysis of the deposited data

How the results depend on the processing

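No paired analysis was possible because the control columns carry a name found in no label and cannot be tied to numbered samples. The 8 tested genes kept their direction under each alternative that gave them a value (SOCS1 had 11 of 14, JAK2 and SOCS2 13, the others all) except JAK1 (-0.24 with TPM as deposited, -0.03 scaled over protein-coding genes, and -0.01 without HA-TAZ 1 to 0.10 without HA-TAZ 3), SOCS2 (-0.15 with TPM as deposited) and IL6ST (0.06 over protein-coding transcripts only). Of the 10 genes, 3 were called, 4 over protein-coding transcripts only (where 3443 of 10527 genes were called, 87.4% higher), 1 by limma without trend (JAK3), and 0 to 2 with 1 library left out (0 without HA-TAZ 1). IL6R lost its call in 8 of 14 alternatives, TYK2 in 10 and JAK3 in 1. Of all genes, 1652 were called, 3329 with TPM as deposited, 691 without the filter, 758 without trend and 118 to 470 with 1 library left out. Of the pathway list genes, 16 were called, 15 with TPM as deposited, 11 without the filter and 5 to 8 with 1 library left out. Of the transcripts, 1 was called, 0 with TPM as deposited, 2 without the filter, 3 at a mean of 5 TPM, 0 to 1 with 1 library left out, and 11 by the authors' deposited q-values. Some causes follow from construction: leaving out a library removes samples, and dropping the filter adds genes. The cause of the others was not tested. As deposited, the differences in TPM, HA-TAZ minus control, were 1.13 for SOCS3, -0.0805 for CISH, -1.46e+03 for the plasma cell marker sum, -1.15 for T and NK cells, -1.19 for monocytes and -2.15 for stroma and endothelium. With no counts per library, the precision of SOCS1, SOCS3 and CISH near 1 TPM rests on the spread between 3 libraries.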
